A study of Drosophila melanogaster with 3 samples.

Results

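The 10 genes described here make, store and break down triglyceride in the fly. They are ACC, FASN1, Desat1, Agpat1, Lpin, mdy, Lsd-1, Lsd-2, bmm and Hsl, chosen by symbol from 13968 annotated protein-coding genes of the chromosome arms. The choice was made with earlier results of these data known. The question put to the data was where peaks of tagged svp lay at these genes. The svp gene encodes the fly COUP-TF, a nuclear receptor with no established ligand. Flies carried a transgene for svp with GFP fused at its C-terminal end, and chromatin was precipitated with an antibody to GFP (ChIP-seq). Whole white prepupae of both sexes were pooled, the stage that opens metamorphosis. The labels give the age as unknown. There is 1 group with 3 biological replicates, and no flies without the tag are among the samples. Peaks of the tagged protein can therefore not be told apart from chromatin that any antibody would recover, and a peak cannot be placed in a tissue.

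Triglyceride is built in steps. Acetyl-CoA is carboxylated, extended to a fatty acid and desaturated, and the acyl chains are then joined to a glycerol backbone that is dephosphorylated before the last chain is added. The product is kept in lipid droplets, whose surface proteins, the perilipins, control the access of lipases. In flies the fat body is the main store, and the animal lives on its reserves from the end of larval feeding until the adult can eat. COUP-TF receptors bind DNA repeats of a short half-site.

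Every one of the 10 genes had at least 1 IDR-thresholded summit in its body or within 5 kb. IDR stands for the irreproducible discovery rate, which compares peak ranks between replicates, and the summit is the position of a peak's maximum. All 10 of 10 is a share of 100% (exact 95% interval 69.2 to 100, which covers counting error only), where 39.2% of all protein-coding genes had such a summit. Because the genes were chosen with earlier results of these data known, the interval is no test against that share. The lipid genes are long, with a median of 8967 bp against 2164.5 bp, and long genes have wider windows. Among the 4594 genes whose length lay between those of the shortest and the longest of the 10, the share was 47.6%. That range sets only the ends, so lengths within it were not matched to the 10 and the share is not adjusted for window width. Within 1 kb of a gene's own transcription start site (TSS) a summit lay at 7 of the 10, the exceptions being ACC, Desat1 and Agpat1. Over all genes the share was 16.1%, not matched for length or number of TSSs.

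**Figure D1:**
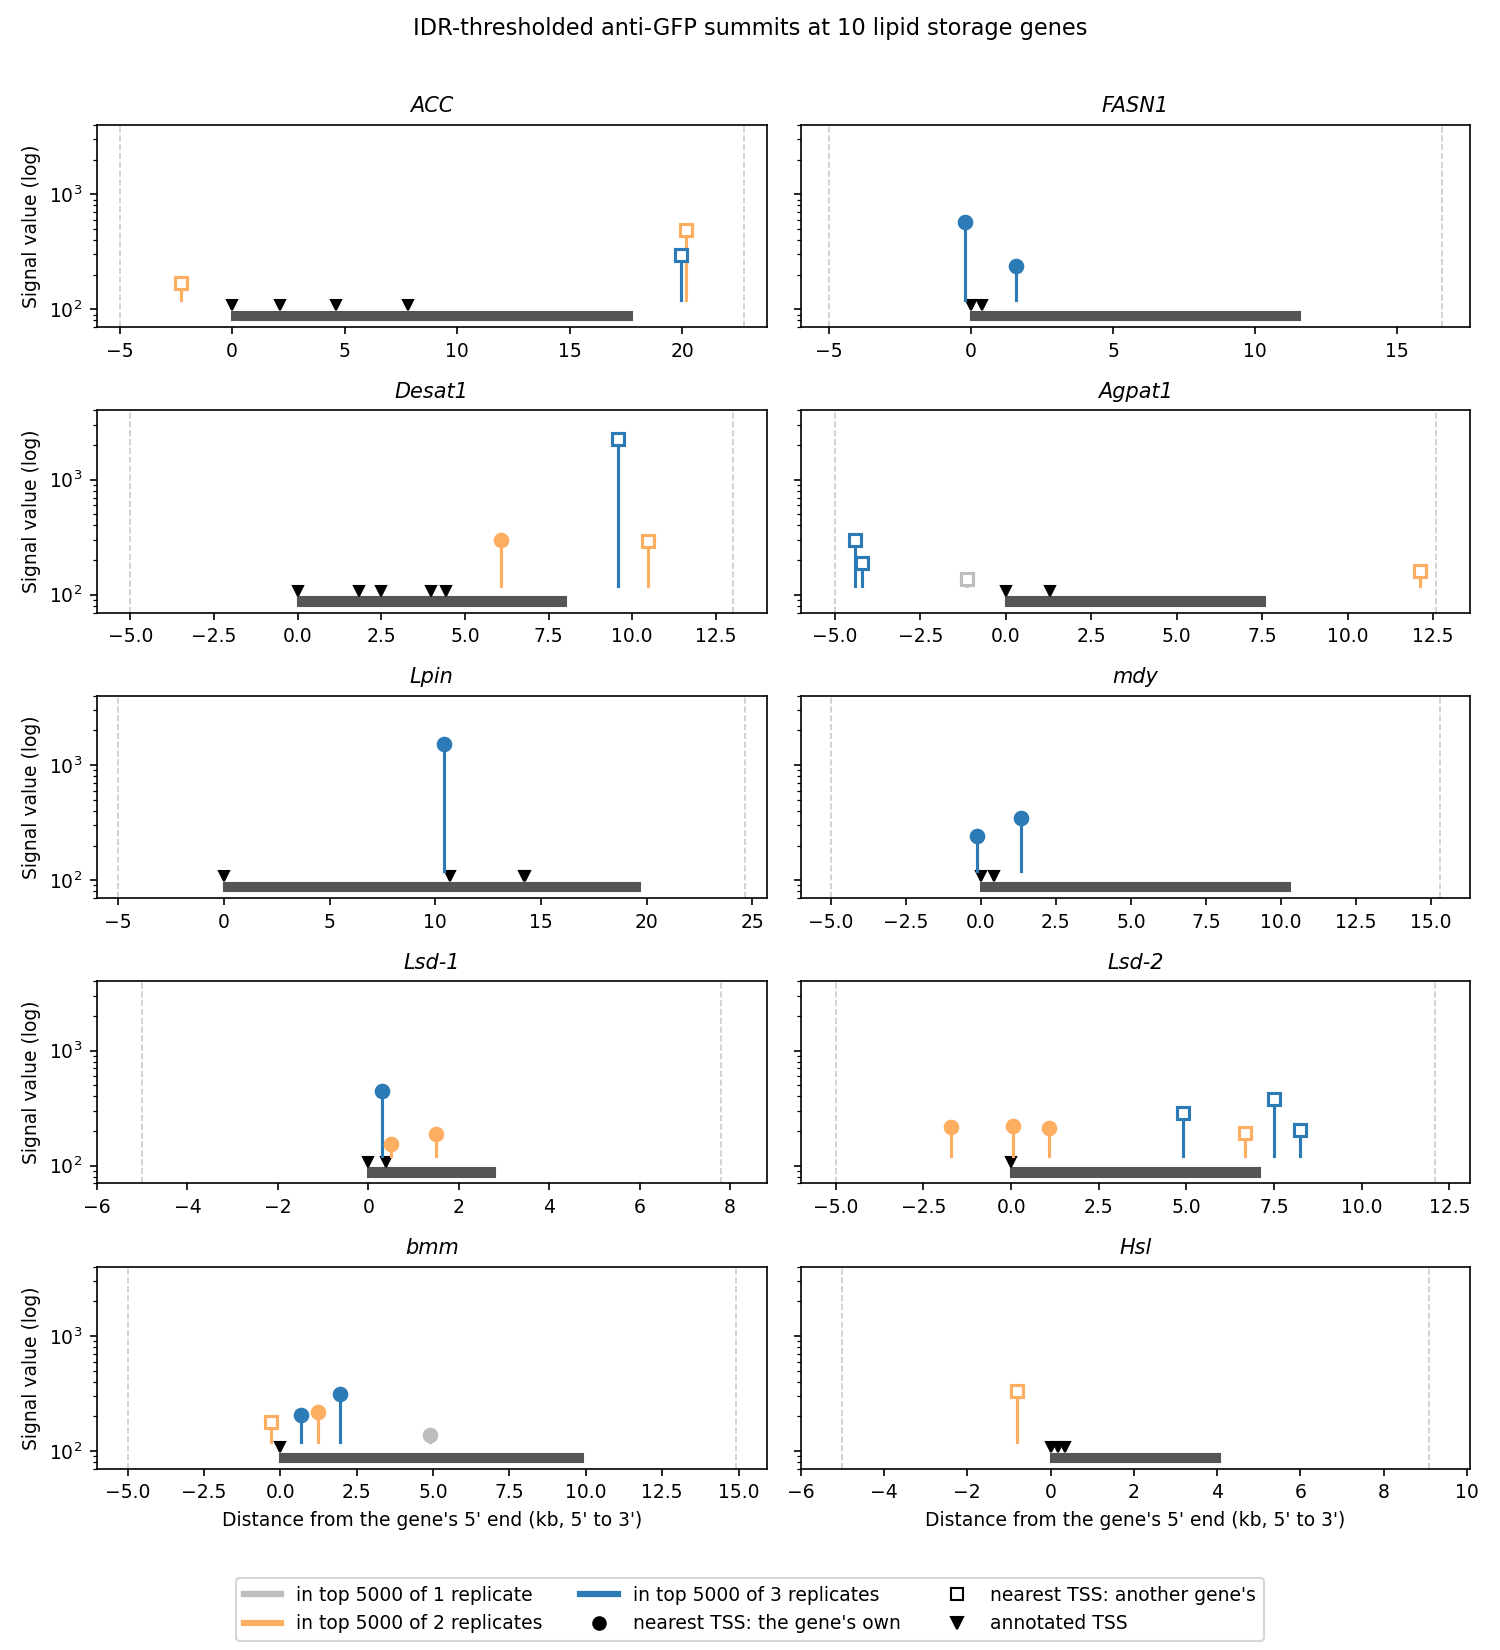
IDR-thresholded summits along each gene, drawn 5' to 3' with distance from the 5' end of the gene in kb on the x axis and the authors' signal value on a log y axis. Grey bars are gene bodies, triangles are annotated TSSs and dashed lines mark the 5 kb flanks; colours give the number of replicates whose top 5000 peaks cover the summit, and open squares are summits nearest to a TSS of another gene. FASN1, mdy, Lsd-1 and bmm had summits at or just inside their 5' ends, while the highest summits at ACC, Desat1, Agpat1, Lsd-2 and Hsl were open squares outside the gene.

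The DNA under the highest summits differed from gene to gene. The letters shown are from RefSeq release 6 (dm6), on the strand of the gene, and capitals mark exact matches to the motifs searched on both strands. They are the nuclear receptor half-site (AGGTCA), a site for GATA factors (GATAAG, or its reverse complement) and a site for forkhead factors (GTAAACA). Windows are centred on the summit. The first pair is shown because each holds more than 1 of these motifs, the FASN1 window being chr2L:3056322-3056422 (plus strand, just before its first TSS) and the Lsd-1 stretch chr3R:23764129-23764158 (plus strand). The Lsd-1 summit lies in an annotated 5' UTR, so only 30 bases are printed. They cover its motif matches and end before the summit at 23764165.
FASN1: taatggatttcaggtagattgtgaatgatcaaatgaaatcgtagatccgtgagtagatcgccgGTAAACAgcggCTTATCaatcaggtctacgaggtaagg
Lsd-1: acgcCTTATCtgctggcaaAGGTCAtcttg
In the FASN1 window the forkhead site starts 13 bp and the GATA site 24 bp after the summit. At Lsd-1 the GATA site starts 32 bp and the half-site 17 bp before it. Another window with a half-site and a GATA site lies downstream of Desat1 at chr3R:12450035-12450135 (plus strand, in an intron of CG18549), where the half-site starts 29 bp before and the GATA site 21 bp after the summit; it was chosen after its matches were seen.
Desat1, lowest of its 3 summits: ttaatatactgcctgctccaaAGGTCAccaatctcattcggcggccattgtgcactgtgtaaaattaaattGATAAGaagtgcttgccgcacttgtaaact
The highest summits of Desat1, mdy, Lsd-2 and bmm held no match to any of the 7 motifs searched. They are shown as the highest summit of each of these genes, beside those with motifs. Their places are chr3R:12449128-12449228 (plus strand), chr2L:16817947-16818047 (plus strand, intron 1), chrX:15068669-15068769 (minus strand, past the 3' end of Lsd-2 and in the coding sequence of its neighbour dob) and chr3L:14784402-14784502 (minus strand, intron 1).
Desat1, highest: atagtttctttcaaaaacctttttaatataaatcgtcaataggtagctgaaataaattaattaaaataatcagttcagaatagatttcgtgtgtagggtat
mdy: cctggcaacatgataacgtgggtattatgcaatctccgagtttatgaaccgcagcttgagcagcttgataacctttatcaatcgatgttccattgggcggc
Lsd-2: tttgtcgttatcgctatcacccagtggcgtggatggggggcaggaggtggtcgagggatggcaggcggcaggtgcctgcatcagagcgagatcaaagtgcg
bmm: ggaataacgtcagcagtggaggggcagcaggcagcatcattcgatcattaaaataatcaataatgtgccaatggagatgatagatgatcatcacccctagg
The base composition of these windows ranged widely, from 24.8% G and C at Desat1 to 61.4% at Lsd-2, with a mean of 38.8% over all summit windows. No match in a window says only that these letters were not there.

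The enzymes of fatty acid synthesis carried 8 summits in all, and the only one of the 3 with a summit at its own promoter was FASN1. FASN1 encodes fatty acid synthase, which extends malonyl-CoA to palmitate (FBgn0283427, 2L 3056598 to 3068177, plus strand). Its highest peak (3056289 to 3056533) had a signal value of 574, with the summit 226 bp before the first of 2 TSSs. The peak over that summit had signal values of 151, 252 and 172 in replicates 1, 2 and 3 and ranked 719, 523 and 513 in their lists. Signal values are not on a shared scale between lists, so the ranks are the comparable measure, and here they differed little. A second peak in intron 1 (3057952 to 3058407, signal value 236) lay 1191 bp from the nearest FASN1 TSS and ranked 2487, 1743 and 4671. Both summits were thus in the top 5000 of every replicate. The promoter summit also falls within 5 kb of the neighbouring paralog FASN2, and for FASN2 it was the highest summit of its window.

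Desat1, a stearoyl-CoA desaturase gene (FBgn0086687, 3R 12439600 to 12447616, plus strand), had the highest signal of the 10 genes in its window, but at the start of the next gene. The peak (12448945 to 12449373, signal value 2244) was rank 14 of the 5443 IDR-thresholded peaks. Its summit lay 1562 bp past the 3' end of Desat1 and 118 bp from a TSS of CG18549, an uncharacterised gene. It ranked 11, 18 and 17 in the replicates, with signal values of 796, 799 and 651. No other summit at the 10 genes ranked as high in any replicate. A smaller peak in intron 2 of Desat1 (12445444 to 12445899, signal value 297) was nearest to an own TSS, at 1631 bp. It ranked 1639 in replicate 2 and 4081 in replicate 3, and no peak of replicate 1 covered it. The third summit (12450016 to 12450130, signal value 294), also nearest to CG18549, behaved alike, with ranks of 1938 and 3856 and no peak in replicate 1. Within 1 kb of the 5 TSSs of Desat1 itself, replicate 1 and the pooled list had no peak. The best there ranked 10114 in replicate 2 and 5856 in replicate 3. With the flank reduced to 1 kb, the highest value of Desat1 falls from 2244 to 297.

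ACC encodes acetyl-CoA carboxylase, the rate-limiting enzyme of fatty acid synthesis (FBgn0033246, 2R 7974115 to 7991862, minus strand), and it had no summit in its body. Its highest peak (7971611 to 7971724, signal value 488) lay 2420 bp past the 3' end, in coding sequence or 5' UTR, by transcript, of the uncharacterised gene CG8726. It ranked 608 in replicate 2 and 957 in replicate 3, and replicate 1 had no peak over it. An overlapping peak (7971671 to 7972126, signal value 295) had its summit 104 bp from a TSS of CG8726 and ranked 3943, 1337 and 3130. The remaining one (7993911 to 7994366, signal value 168) lay 2277 bp upstream of ACC and nearer to Dic3, a dicarboxylate carrier gene, with ranks of 6179, 2948 and 4435. Weak peaks were present at ACC's own TSSs. The best within 1 kb of them ranked 7599, 7358 and 13542, below the top 5000 of every replicate. The ACC window held 15, 16 and 12 peaks in the replicate lists of 30000, of which 1, 3 and 3 were among the top 5000.

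The glycerolipid assembly genes carried 7 summits, 5 of them in the top 5000 of all 3 replicates, and Lpin had the strongest peak at an own promoter among the 10 genes. Lpin encodes lipin, a phosphatidate phosphatase that makes diacylglycerol (FBgn0263593, 2R 8136986 to 8156654, minus strand). Its single summit (peak 8146029 to 8146434, signal value 1537) was rank 44 of the IDR-thresholded list. In the replicates it had signal values of 462, 604 and 482 and ranked 53, 48 and 46. The summit lay 248 bp upstream of an internal TSS, the second of 4, which is 10673 bp from the outermost one. No IDR-thresholded summit lay at the outermost TSS. By the highest summit in its window, Lpin was in the top 0.823% of the 13968 genes, after Desat1 in the top 0.200%.

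mdy encodes midway, the diacylglycerol acyltransferase that adds the last acyl chain (FBgn0004797, 2L 16816660 to 16826964, plus strand). Its higher peak (16817919 to 16818062, signal value 349) lay in intron 1, 889 bp from a TSS, and ranked 1398, 1164 and 1862, with signal values of 103, 172 and 86.1. The other (16816318 to 16816773, signal value 240.4) lay 114 bp before the outermost TSS and ranked 2204, 3334 and 3005. Every replicate had both in its top 5000. The summits also fall in an intron of CG13280, a gene on the opposite strand, and mdy had the nearest TSS in each case.

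Agpat1 encodes an acylglycerolphosphate acyltransferase, which makes phosphatidic acid (FBgn0030421, X 12765266 to 12772851, plus strand). It had 4 summits, and for none of them was an Agpat1 TSS the nearest. The highest (12760632 to 12761087, signal value 302) was 4406 bp upstream and 243 bp from a TSS of Paics, a purine synthesis gene, in the 3' UTR of pira. It ranked 1765, 2013 and 2100, and the same replicate peaks covered an overlapping summit of signal value 189. A summit 1128 bp upstream of Agpat1 (signal value 136), nearest to pira, was in the top 5000 of replicate 2 only, at rank 3883. The last (signal value 161), 4540 bp past the 3' end, ranked 4559, 3245 and 5928. Within 1 kb of the own TSSs the best peaks ranked 6550, 6923 and 9906. The value at Agpat1 thus hangs on the flank, being 136 with a flank of 2 kb and 552 with one of 10 kb.

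The droplet coat genes carried 10 summits, the most of any step, of which 7 were at Lsd-2. In the top 5000 of all 3 replicates were 4 of the 10, against 5 summits of glycerolipid assembly, 4 of fatty acid synthesis and 2 of the lipases. Lsd-1 encodes perilipin 1, a droplet protein that takes part in regulated lipolysis (FBgn0039114, 3R 23763857 to 23766662, plus strand). Its highest summit (peak 23764050 to 23764329, signal value 447) lay 73 bp upstream of an internal TSS, 381 bp inside the gene. Its signal values were 132, 237 and 88.4 and its ranks 914, 607 and 1784. An overlapping peak with a summit 130 bp past that TSS had a signal value of 154. In replicates 1 and 2 the same peaks, of ranks 914 and 607, covered it. Replicate 1 also had a peak of rank 2904 there, 149 bp past the TSS, and replicate 3 had one of rank 9447. An intronic peak (23765118 to 23765573, signal value 189.8) ranked 3087, 5817 and 3333. Of the 3 summits, the first was in the top 5000 of all replicates and the others in that of 2 each.

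Lsd-2 encodes perilipin 2, which shields stored fat from lipases (FBgn0030608, X 15069127 to 15076220, minus strand), and its summits were spread along the gene and both flanks. Only 0.945% of protein-coding genes, taken at any length, had 7 or more summits in their window. The summit at its TSS (63 bp inside, signal value 221) ranked 1966, 2945 and 6281. One 1703 bp upstream (signal value 216) ranked 2213, 2398 and 13314, and one in intron 1 (signal value 213) ranked 2491, 2135 and 5971. All 3 summits nearest to the Lsd-2 TSS were thus in the top 5000 of replicates 1 and 2 and below it in replicate 3. The other 4 were nearest to a TSS of dob, a lipase gene of the same family as bmm that runs toward Lsd-2 from its 3' side. The highest of these (15068573 to 15068858, signal value 380.2) ranked 1429, 1248 and 1105. In the 3' UTR of Lsd-2, summits of signal value 285 and 193 ranked 2738, 1378 and 2325, and 1911, 3372 and 12556. The seventh, in the coding sequence of dob (signal value 206), ranked 3798, 3083 and 2711. The 3 supported by every replicate were all on the dob side.

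The lipase genes carried 6 summits, 5 at bmm and 1 at Hsl. bmm encodes brummer, the fly counterpart of adipose triglyceride lipase, which starts the breakdown of stored triglyceride (FBgn0036449, 3L 14776496 to 14786412, minus strand). Of its summits, 4 lay in intron 1, at 683, 1241, 1960 and 4913 bp from its only TSS, with signal values of 204, 220.4, 314 and 138. The highest (peak 14784404 to 14784554) ranked 1305, 1286 and 2327, with signal values of 107, 164 and 74.4. That at 683 bp ranked 4236, 2022 and 3667, and these summits were the only ones of bmm in the top 5000 of all 3 replicates. The one at 1241 bp missed the top 5000 of replicate 2, with ranks of 1199, 5024 and 2777. The lowest, at 4913 bp, carried a forkhead site and ranked 5189, 3509 and 5327. A summit 292 bp upstream of bmm (signal value 178) was 87 bp from a TSS of the neighbour Tdrd3 and ranked 3738, 5093 and 2185.

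Hsl encodes hormone-sensitive lipase (FBgn0034491, 2R 20257650 to 20261726, plus strand) and had 1 summit, which replicate 3 did not share. The peak (20256739 to 20256913, signal value 334) lay 795 bp upstream, in the coding sequence of Ate1 and 535 bp from a TSS of that gene, which encodes an arginyltransferase. It had signal values of 94.7 and 165 and ranks of 1600 and 1267 in replicates 1 and 2. Replicate 3 had 0 peaks of any rank in the whole Hsl window. Hsl was the only one of the 10 genes with no peak at all in a replicate, so its summit rests on replicates 1 and 2. With the summits asked to be in the top 5000 of both other replicates, Hsl had none without replicate 1 or without replicate 2, which leaves 9 of the 10 genes.

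**Figure D2:**
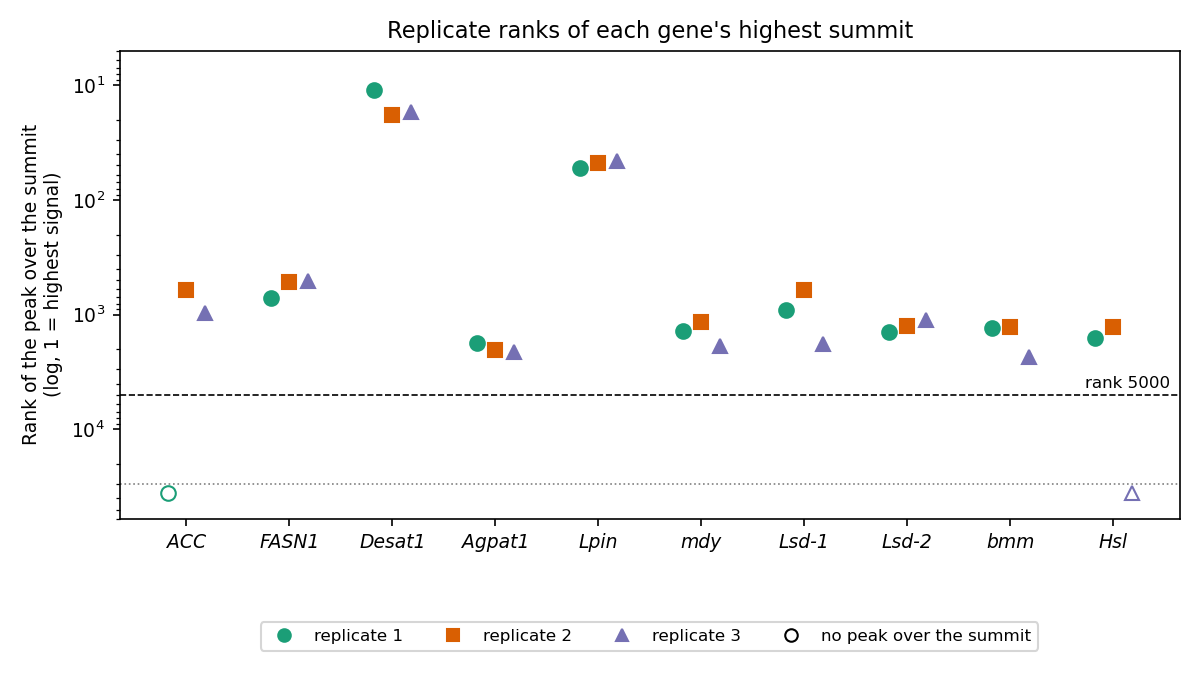
Rank by signal value (log y axis, 1 is the highest) of the peak that covers the highest IDR-thresholded summit of each gene, for replicates 1 (circles), 2 (squares) and 3 (triangles). The dashed line is rank 5000, the dotted line is the end of the list at 30000, and open symbols below it mark no peak. Desat1 and Lpin lie between ranks 11 and 53 in every replicate, while ACC has no peak in replicate 1 and Hsl none in replicate 3.

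Across the 10 genes, 31 summits lay in 198799 bp of windows, or 1.56 per 10 kb, against 0.394 over the arms and 0.493 over the windows of all protein-coding genes. Overlapping peak intervals merge to 28 separate regions. The genes had 3.1 summits each on average, against 0.835 for all genes. At least 3 summits were found at 6 of the 10 and at 10.6% of all genes. Only 16 of the 31 were nearest to the TSS of the lipid gene itself. These belonged to 7 of the genes, all but ACC, Agpat1 and Hsl, and 18.7% of all genes had a summit of this kind. The values given here for all genes were not matched for gene length or number of TSSs, and the 10 genes are longer at the median. The highest summit was nearest to the own TSS at 5 of the 10, namely FASN1, Lpin, mdy, Lsd-1 and bmm. No share over all genes is given here for this, so it cannot be called high or low. Counted by position, 15 summits were inside a gene body and 16 outside it, and 8 fell in an exon of another protein-coding gene. These 3 counts are likewise given without a share over the arms. Within 500 bp of some protein-coding TSS were 38.7% of the summits, against 32.7% over the arms.

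**Figure D3:**
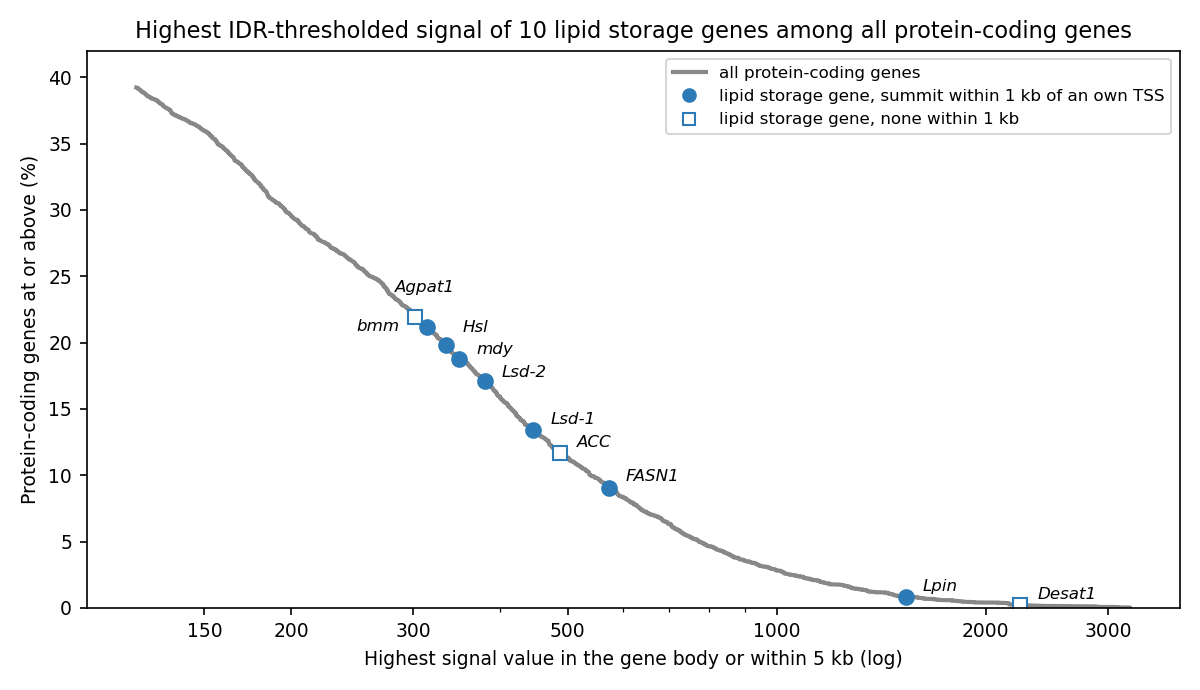
Highest IDR-thresholded signal value in the gene body or within 5 kb (log x axis) against the percentage of the 13968 protein-coding genes at or above that value (y axis). The grey line is all genes, filled circles are lipid genes with a summit within 1 kb of an own TSS and open squares those without. All 10 lie in the top 22%, from Desat1 at 0.200% to Agpat1 at 21.9%, among genes not matched for length. The Desat1 value is that of a summit outside the gene and nearest to a TSS of CG18549.

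Most of the summits had signal values in the middle of the list, and the highest of Desat1 and the single one of Lpin were near its top. That Desat1 summit lies outside the gene, 118 bp from a TSS of CG18549. The median signal value was 236, against 218 over the arms, with a range from 136 to 2244 in a list that runs from 120 to 3228. Above the arm median were 18 of the 31. The highest summit of each gene had a median of 413, against 336 for genes with a summit, and 7 of the 10 were above the latter. A window with more summits has more values from which its highest is taken. These medians were not matched for gene length or number of summits. Among the 300 strongest of the 5443 IDR-thresholded peaks were 2 of the 31, which is near the share of the 300 in the whole list.

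The replicates did not share all of these summits. All 3 had 15 of the 31 in their top 5000 (48.4%, exact 95% interval 30.2 to 66.9), and 56.7% of the 5425 arm summits were shared in this way. The interval includes that share, but it treats the 31 summits as independent, though some overlap. A further 14 were in the top 5000 of 2 replicates and 2 in that of 1. By replicate, 80.6%, 90.3% and 71.0% of the lipid gene summits were in the top 5000 of replicates 1, 2 and 3, against 79.8%, 78.0% and 79.7% of arm summits. Among the lipid gene summits covered by a peak of the replicate, the median ranks were 2085, 2013 and 3067.5, lowest in replicate 3. These medians leave out 3 summits with no peak in replicate 1 and 1 with none in replicate 3. No median over the arm summits is given beside them. Without replicate 1, 2 or 3, with support asked of both others, 19, 18 and 22 of the 31 summits were left, where 3611, 3588 and 3463 of the 5425 arm summits were. The density then was 0.956, 0.905 and 1.11 per 10 kb.

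**Figure D4:**
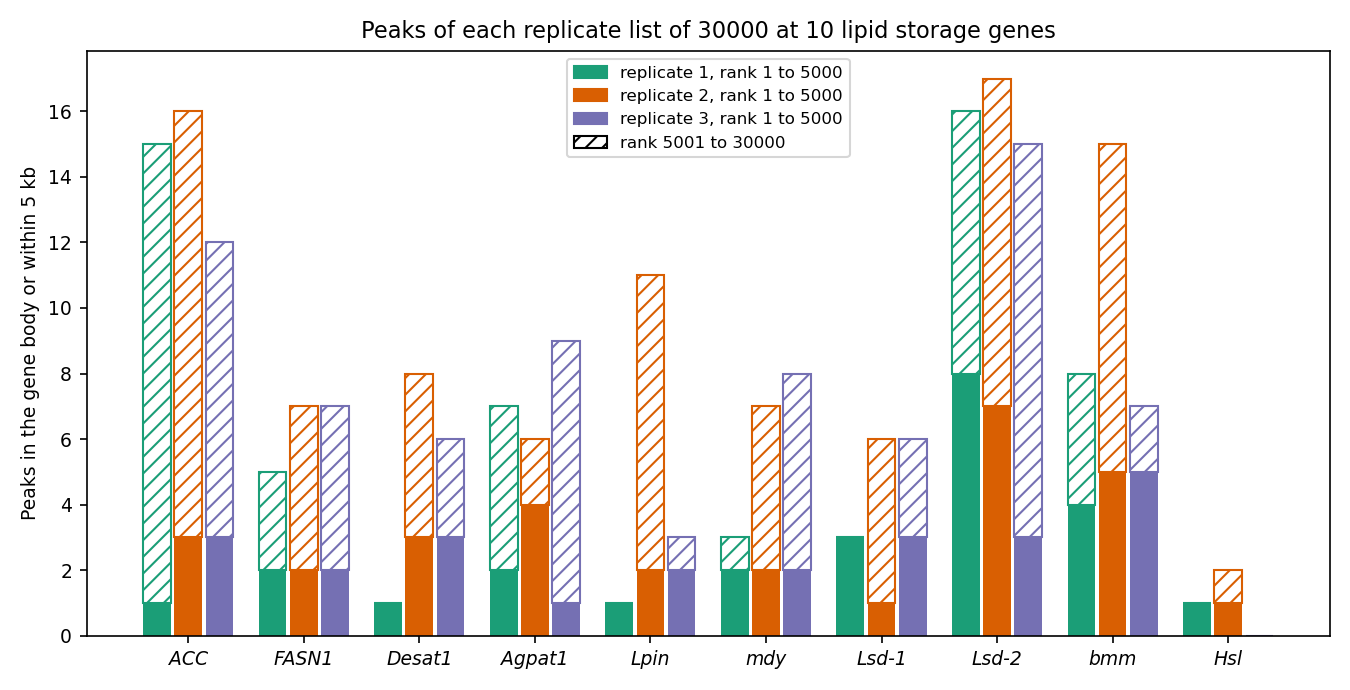
Number of peaks in the gene body or within 5 kb of each lipid gene (y axis) in the lists of 30000 peaks of replicates 1, 2 and 3 (bars from left to right). Solid parts are peaks among the top 5000 and hatched parts are lower ranks. Replicate 2 has 11 peaks at Lpin where replicate 1 has 1, most of them hatched, and Hsl has 2 at most.

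Taken alone, each replicate gave a like picture at high ranks and a less even one below. A top 5000 peak lay in the window of 96.7% ± 5.77 of the 10 genes (SD, n = 3), with values of 100%, 100% and 90%. Over all genes, not matched for length, it was 39.9% ± 4.36. The number of such peaks at the 10 genes was 25, 30 and 24 in replicates 1, 2 and 3. Over the full lists it was 60, 95 and 73, or 3.02, 4.78 and 3.67 per 10 kb, against 2.18 over the arms in each. Most of the spread was at ranks below 5000. At Desat1 the full lists held 1, 8 and 6 peaks and at Lpin 1, 11 and 3, while Lsd-2 had 16, 17 and 15.

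Short motifs were found at 12 of the 31 summits, and 19 had none of the 7 searched within 50 bp. Over the arms, 70.5% of summits had none. The half-site was present at 4 (12.9%, exact 95% interval 3.63 to 29.8), against 5.35% of arm summits. These were 1 summit each of ACC (signal value 295), Desat1 (294), Lsd-1 (447) and Hsl (334). A GATA site was present at 5 (16.1%, against 11.2%), and at Desat1, Lsd-1 and Hsl it was in the same window as the half-site. Such a pair was found at 1.05% of arm summits, which makes 19.7% of those with a half-site. The pair is not one of the 7 motifs and was picked out from these same summits, so these shares are no test of an excess. The GAGA site GAGAG was present at 5 (16.1%, against 14.0%) and the forkhead site at 2 (6.45%, against 2.43%), in FASN1 and bmm. The E-box CACGTG, the sterol response site TCACNCCAC and DR1, a direct repeat of the half-site with 1 base between and up to 1 mismatch, were at 0 of 31, which allows a share of up to 11.2% (exact 95% interval). Over the arms they were at 0.848%, 0.221% and 0.0922%. For each of the 7 motifs, the exact 95% interval of the lipid gene share includes the share over the arms. These intervals treat the 31 summits as independent, though they lie at 10 genes and merge to 28 regions. No difference in motif share was tested. Without replicate 2, the half-site was left at 2 summits.

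Other genes of lipid synthesis and storage carried summits as well, in shares that the classes' small sizes leave uncertain. Of 42 listed genes, 28 (66.7%, exact 95% interval 50.5 to 80.4) had one in the body or within 5 kb, against 39.2% of all protein-coding genes. Within 1 kb of an own TSS it was 23 (54.8%), against 16.1%. Neither share over all genes is matched for length. This list too was chosen with earlier results of these data known, so the interval is no test against the share of all genes. It also treats the genes as independent, though some of their windows share summits. Fatty acid uptake and activation genes had one in 7 of 7 cases and lipid droplet proteins in 4 of 4. Lipases had one in 4 of 5, fatty acid synthesis genes in 7 of 11, the phospholipid branch in 2 of 4 and glycerolipid assembly in 4 of 11 (36.4%), which is near the share of all genes. The exact 95% intervals of the classes are wide and overlap, and a difference between classes was not tested. Some of these counts rest only on summits nearest to a TSS of another gene. Agpat3, Agpat4 and CG1941 were among the 14 without. Of the 73 distinct summits, 48 (65.8%) were in the top 5000 of all 3 replicates. The median of the highest signal value per gene was 507.

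The 5 highest of these genes mostly had their summit at a neighbour's start as well. ATPCL, ATP citrate lyase, which supplies cytosolic acetyl-CoA, had a signal value of 1314 and ranks of 126, 81 and 53, with the summit 85 bp from a TSS of CG8320. SCAP, the escort protein of the transcription factor SREBP, had 1020.2 at 234 bp from its own TSS, with ranks of 79 and 182 in replicates 2 and 3 and no peak in replicate 1. The fatty acid-binding protein gene fabp had 924, in an intron and 393 bp from a TSS of sea, the mitochondrial citrate carrier gene, with ranks of 136, 265 and 184. AcCoAS, acetyl-CoA synthetase, had 868 at 33 bp from a TSS of ppl and ranked 379, 104 and 507. Fitm, which encodes a protein of droplet formation, had 705 at 106 bp from a TSS of Tcs5 and ranked 295, 514 and 319. Of the 5, only SCAP had its highest summit nearest to its own TSS.

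At the edge of the 5 kb flank, the summits just inside were those of Agpat1 at 4540 and 4406 bp. Just outside were one of signal value 1070 at 5675 bp from Lsd-1, 157 bp from a TSS of PTPMT1, and one of 325 at 5910 bp from Agpat1.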

How the data were processed

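The data are narrowPeak lists on dm6. The deposited manifests state that each replicate's peaks came from its own alignments and 1 control file, a pooled list from all 3, and the IDR-thresholded list from these. For the aligner, caller, depth and IDR threshold, nothing is stated in the labels or manifests. The signal value and the −log10 q-value of each peak are as deposited by the authors; the first, of unstated scaling, ranked peaks within 1 list and the second was not used further. Each replicate and pooled list holds 30000 peaks, so its length says nothing of depth. The 5443 IDR-thresholded peaks were the 5443 highest of the pooled list, so a peak can be in it with none in a replicate. The dm3 lists were not used here.

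Peaks were placed by their summit, 1-based, with the RefSeq sequence of release 6 and the Ensembl 115 annotation. A promoter is within 500 bp of a TSS. A replicate supports a summit that lies inside one of its top 5000 peaks. Motifs were searched in the 101 bases around each summit. Intervals of shares are exact 95% binomial intervals. With 1 group, no test between groups was made. Python 3.11.15, numpy 2.4.6, pandas 2.3.3, scipy 1.17.1 and matplotlib 3.10.9 were used, and the steps were tested on simulated data.

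The genes and lists were chosen with earlier results of these data known. Named genes are the 10, any gene whose TSS is nearest to a summit, and of the other lipid genes the 5 with the highest signal and the first 3 in alphabetical order without a summit. Of 45 list symbols 2 matched no gene and 1 repeated another. A chaperonin subunit listed by mistake was taken out before its values were seen. Sequences are those of the highest summits, shortened to 30 bases or left out where they overlap a UTR, and not given for ACC, Lpin and Hsl. The 30 bases printed for Lsd-1 cover its motif matches and do not reach the summit. One lower summit of Desat1 was added after its motif matches were seen. Alternatives changed the flank, the distance to a TSS, the peak list, the placing of peaks, the support rule, the motif window and the replicates used.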

Additional observations from a re-analysis of the deposited data

How the results depend on the processing

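Of 66 alternatives of the main counts, 54 stayed within 1.5 times the main value and 12 moved further. These values have no sign, so none could reverse. The limit of 1.5 times is wide, as a fall from 10 to 7 genes with a summit lies within it. The alternatives with only the highest peaks of the pooled list drew on the IDR-thresholded peaks themselves. They repeated the main values and are no separate check. The 31 summits became 20 with a flank of 1 kb, 15 with the gene body only and 18 with the 50% of peaks of higher signal, where the density was 0.905 per 10 kb. Without each replicate the summits ranged from 18 to 22, the density from 0.905 to 1.11 per 10 kb and the half-site summits from 2 to 3. The 15 summits supported by all replicates became 7 with the gene body only, 25 with the top 10000 and 27 with any of the 30000 peaks. A flank of 1 kb left 8 genes with a summit (not ACC and Agpat1), and the gene body only 7 (not ACC, Agpat1 and Hsl). Of 34 values of single genes under other flanks 7 moved, at Desat1, Agpat1, Lsd-1, FASN1 and Lsd-2. A narrower flank, the higher-signal peaks and the loss of a replicate keep fewer summits by construction, a flank of 10 kb keeps more (38), and the wider rank limits ask for less support. No paired analysis was possible because the replicates form 1 group. Depth is unknown, so a summit missing in a replicate may be below its list and is not shown to be absent.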
